A study of Mus musculus with 18 samples.

Results

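The genes described here encode the 6 subunits of the MCM2-7 helicase, Mcm2, Mcm3, Mcm4, Mcm5, Mcm6 and Mcm7, and the MCM-binding protein Mcmbp. They were taken by name: the 7 rows of the expected-count table whose Ensembl identifiers map to these symbols, of 51912 genes in the table and 15710 genes with enough counts to be tested, among which were all 7. The libraries came from primary mouse embryonic fibroblasts (MEFs) of 6 genotypes, 3 libraries each. Pole4 was either intact (Pole4+/+) or deleted (Pole4-/-), and in both backgrounds there were cultures with 2, 1 or 0 Trp53 alleles (Trp53+/+, Trp53+/- and Trp53-/-). The cultures were derived from mid-gestation embryos of Pole4+/- Trp53+/- intercrosses on a C57BL/6 background, with the head and internal organs removed, and all were kept at 5% oxygen with 15% serum and harvested at passage 1. Pole4 encodes an accessory subunit of DNA polymerase epsilon, the leading-strand polymerase, and Trp53 encodes the tumor suppressor TRP53. The study asked how the transcriptome of cells with an unstable polymerase epsilon depends on TRP53. Both deletions are germline and affect every cell of the embryo, so a MEF culture also carries whatever the genotype did to the embryo before harvest.

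MCM2-7 is the ring-shaped motor of the replicative helicase. In G1 phase the origin recognition complex, CDC6 and CDT1 load it onto DNA as an inactive double ring, which licenses the origin. In S phase the kinases DDK and CDK, with CDC45 and the GINS complex, turn each ring into an active CMG helicase, and polymerase epsilon is held directly on it. MCMBP binds MCM subunits that are not on chromatin and protects newly made ones. The MCM genes are textbook targets of the E2F transcription factors, which the retinoblastoma family of pocket proteins keeps silent in quiescent and arrested cells. TRP53 acts on this circuit through Cdkn1a, whose product P21 inhibits cyclin-dependent kinases.

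Promoter sequences are shown first, since the members changed together and E2F is the factor best known at their start sites. RefSeq windows on GRCm38.p6, from 250 bases before to 50 bases after the transcription start, existed for 6 of the 7 members, and Mcm7 has a window for each of 2 start sites. Both strands were searched for 4 E2F words, TTTCCCGC, TTTCGCGC, TTTGCCGC and TTTGGCGC, which occur in 2.27% of all 32851 windows of this length. Capitals mark these words on either strand, each window is written 5′ to 3′ on the strand of its gene, and 2 overlapping words appear as 1 longer run of capitals.
Mcm2, chr6:88898731-88899030 (- strand): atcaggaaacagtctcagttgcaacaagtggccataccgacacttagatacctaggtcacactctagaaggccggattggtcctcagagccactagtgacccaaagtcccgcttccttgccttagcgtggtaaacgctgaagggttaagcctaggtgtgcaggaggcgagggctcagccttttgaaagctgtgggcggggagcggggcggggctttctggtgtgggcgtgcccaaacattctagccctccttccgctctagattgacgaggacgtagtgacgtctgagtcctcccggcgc
Mcm3, chr1:20820263-20820562 (- strand): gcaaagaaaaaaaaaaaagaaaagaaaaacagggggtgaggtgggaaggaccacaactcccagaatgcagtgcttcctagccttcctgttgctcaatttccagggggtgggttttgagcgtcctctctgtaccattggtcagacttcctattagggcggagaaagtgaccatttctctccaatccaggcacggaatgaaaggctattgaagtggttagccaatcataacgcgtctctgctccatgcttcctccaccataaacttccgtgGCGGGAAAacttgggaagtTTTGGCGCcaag
Mcm5, chr8:75109259-75109558 (+ strand): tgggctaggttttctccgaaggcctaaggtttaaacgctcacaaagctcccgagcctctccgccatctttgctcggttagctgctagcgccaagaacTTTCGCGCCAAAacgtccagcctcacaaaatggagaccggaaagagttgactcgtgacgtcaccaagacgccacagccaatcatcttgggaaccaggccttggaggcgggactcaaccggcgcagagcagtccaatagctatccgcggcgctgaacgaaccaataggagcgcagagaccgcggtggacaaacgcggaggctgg
Mcm6, chr1:128359656-128359955 (- strand): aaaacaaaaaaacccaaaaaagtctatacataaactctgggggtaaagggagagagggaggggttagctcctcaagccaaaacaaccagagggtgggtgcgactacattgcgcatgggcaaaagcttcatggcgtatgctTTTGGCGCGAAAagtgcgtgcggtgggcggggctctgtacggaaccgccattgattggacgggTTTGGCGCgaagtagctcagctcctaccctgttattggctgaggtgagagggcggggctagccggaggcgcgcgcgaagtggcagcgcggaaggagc
Mcm7, upstream start, chr5:138171834-138172133 (- strand): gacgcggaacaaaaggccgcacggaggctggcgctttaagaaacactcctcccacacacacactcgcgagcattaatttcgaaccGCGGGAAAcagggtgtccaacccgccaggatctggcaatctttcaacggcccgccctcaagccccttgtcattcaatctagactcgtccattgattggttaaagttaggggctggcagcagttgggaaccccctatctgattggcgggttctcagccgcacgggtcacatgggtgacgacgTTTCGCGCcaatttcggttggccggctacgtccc
Mcmbp, chr7:128740380-128740679 (- strand): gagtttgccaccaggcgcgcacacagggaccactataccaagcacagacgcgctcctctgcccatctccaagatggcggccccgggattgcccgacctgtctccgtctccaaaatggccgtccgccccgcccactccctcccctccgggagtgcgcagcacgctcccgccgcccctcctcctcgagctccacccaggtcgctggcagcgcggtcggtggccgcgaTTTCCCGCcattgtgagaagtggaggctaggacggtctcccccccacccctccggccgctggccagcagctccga

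An E2F word was present in 5 of the 6 members with a window. Mcm6 held 3 words, Mcm3, Mcm5 and the upstream Mcm7 start held 2 each, and Mcmbp held 1. In Mcm5 and Mcm6 a pair of words lay back to back across 1 stretch, starting 153 bases upstream of the start in Mcm5 and 110 bases upstream in Mcm6, and Mcm6 had its remaining word 47 bases upstream. Mcm3 carried both of its words just inside the transcript, at positions 20 and 39, while the single Mcmbp word lay 25 bases upstream of the start. The Mcm2 window and the downstream Mcm7 window held none of the 4 words, which says only that these letters are absent from those windows. The CCAAT box (CCAAT, bound by NF-Y) is far more common, at 37.4% of all windows, and was found in 5 of the 6 members, Mcmbp being the exception. TTTGAA or TTCGAA, the core of the CHR element of cell cycle promoters, was in 19.2% of all windows and in 2 of the members, Mcm2 and Mcm7. The GC box (GGGCGG) was in 35.7% of windows and in 5 of the members, Mcm5 being the exception. A match describes the letters of a window and does not show binding.

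**Figure D1:**
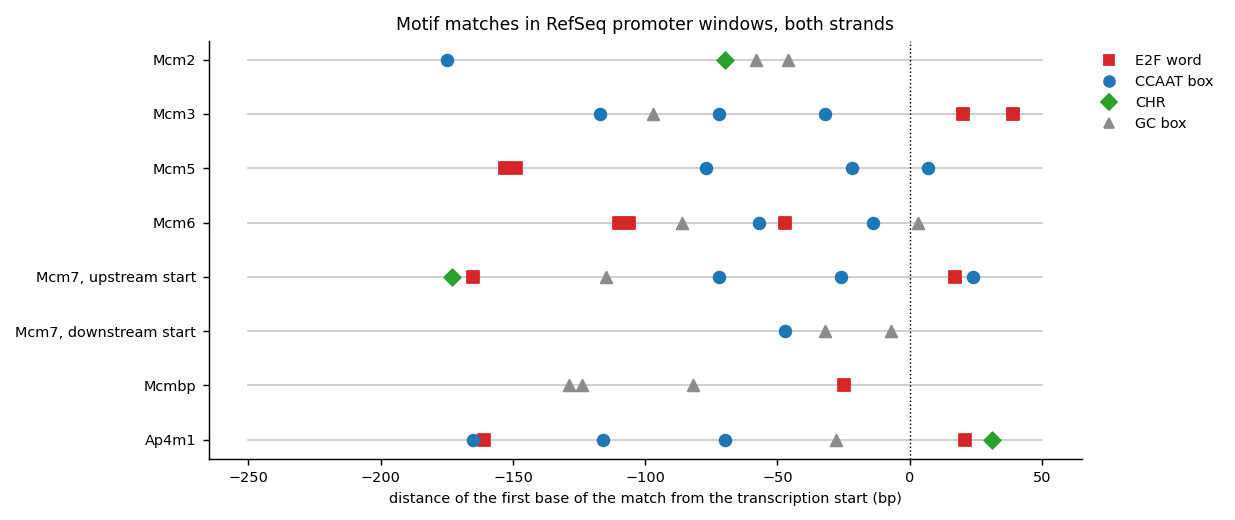
Positions of motif matches in 300-base RefSeq promoter windows of 6 MCM genes and of Ap4m1, the divergent neighbour of Mcm7. The x axis gives the distance of the first matching base from the transcription start in bp, each row is a window, and red squares are E2F words, blue circles CCAAT boxes, green diamonds CHR elements and gray triangles GC boxes; the Mcm2 row has no red square, and Ap4m1 has 2.

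The deposited values are expected counts, and levels are given as CPM, the counts of a gene per 1000000 counts of the library after edgeR's TMM scaling. The fits covered all 18 libraries with 1 mean per genotype. Calls are made by edgeR's quasi-likelihood test at a p under 0.05, adjusted by the Benjamini-Hochberg method across the 15710 genes, and ± after a log2 fold change is its standard error. Library totals ran from 9535971 to 35319918 counts, and the members themselves drew between 160 counts (Mcm5) and 4316 counts (Mcm6) in a library. Ribosomal RNA genes took 0.968 to 42.5% of a library, and at least 24.7% in each of the 3 Pole4-/- Trp53-/- libraries. Trp53 stood at 64.2 to 96.1 CPM in the 6 Trp53+/+ libraries, 48.4 to 59.6 CPM in the 6 Trp53+/- libraries and 8.65 to 12.1 CPM in the 6 Trp53-/- libraries. Pole4 counts were lower but not absent in Pole4-/- cells, at 9.26 to 11.99 CPM against 14.2 to 26.4 CPM in Pole4+/+ cells. These are counts over the whole gene, and which exons they fall on is not recorded in the table. Replicate 1 of Pole4+/+ Trp53-/- stood apart from replicates 2 and 3: its first principal component was -30.4, against 48.8 and 54.8, limma gave it the lowest quality weight of the 18 (0.107), and it held both Xist (1081 CPM) and Y-linked RNA (9.08 CPM over 4 genes). In every other library either Xist was at most 3.28 CPM or the Y-linked genes were at most 0.337 CPM. Whether this library holds RNA of more than 1 embryo was not tested, so its values may not stand for a single embryo. Comparisons with its group are given with and without it. Among the marker lists fibroblast genes had the highest sum in every library, 13720 to 30960 CPM over 10 markers. Single markers of that list varied, with Dcn at 1.45 to 35.0 CPM and Lum at 1.09 to 41.7 CPM. The macrophage, endothelial, epithelial, neural and erythroid lists summed to at most 46.9, 5.57, 20.02, 27.2 and 0.647 CPM, and skeletal muscle genes to 42.7 to 203 CPM. In bulk RNA of this kind, a smaller share of cells that express a gene and less RNA per cell cannot be told apart.

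The 6 subunits followed 1 pattern across the genotypes. Each was lowest in Pole4-/- Trp53+/+ MEFs, where the 3 libraries lay close together and below all 15 other libraries. With 1 Trp53 allele lost in Pole4-/- cells the levels overlapped with those of Pole4+/+ Trp53+/+ cells, and with both lost they were higher still. Pole4-/- Trp53-/- had the highest mean of the 6 genotypes for Mcm3, Mcm4, Mcm5, Mcm6, Mcm7 and Mcmbp, and Mcm2 had near-equal means of 85.8 and 86.2 CPM in the 2 Trp53-/- genotypes. That ranking rests on replicate 1 of Pole4+/+ Trp53-/-: over replicates 2 and 3 alone this genotype had the higher mean for all 7 members, for example 100.4 CPM of Mcm2 and 97.7 against 88.3 CPM of Mcm3. From the second lowest genotype up, neighbours in this order overlapped for every member, with 1 exception: for Mcm2, Pole4-/- Trp53-/- lay above Pole4+/+ Trp53+/-.

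Mcm2 (ENSMUSG00000002870, GRCm38 chr6:88883474-88898780, minus strand) encodes the subunit that also carries histones H3 and H4 at the fork. Its level was 59.1, 68.2 and 46.5 CPM in Pole4+/+ Trp53+/+ cells and 28.7, 29.6 and 29.7 CPM in Pole4-/- Trp53+/+ cells. In Pole4-/- Trp53+/- cells it was 52.0, 68.0 and 49.1 CPM, and in Pole4-/- Trp53-/- cells 83.6, 78.6 and 95.3 CPM. The 3 Pole4-/- genotypes did not overlap with each other. In the Pole4+/+ background Mcm2 was at 71.2, 65.8 and 63.2 CPM with 1 Trp53 allele, and at 57.8, 95.5 and 105 CPM with none, where the first library lay inside the Trp53+/+ range.

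Mcm3 (ENSMUSG00000041859, GRCm38 chr1:20802968-20820312, minus strand), whose product sits beside MCM5 in the ring, stood at 56.2, 62.1 and 39.5 CPM in Pole4+/+ Trp53+/+ cells and at 26.4, 26.04 and 25.2 CPM in Pole4-/- Trp53+/+ cells. The remaining Pole4-/- cultures gave 47.5, 59.0 and 42.4 CPM with 1 Trp53 allele and 87.9, 81.2 and 95.9 CPM with none. Again no 2 of the Pole4-/- genotypes overlapped. Pole4+/+ Trp53+/- cells had 59.5, 57.1 and 54.1 CPM, and Pole4+/+ Trp53-/- cells 49.0, 93.3 and 102 CPM.

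Mcm5 (ENSMUSG00000005410, GRCm38 chr8:75109569-75128439, plus strand) showed the highest ratio between its highest and lowest library. It was at 49.7, 53.6 and 35.5 CPM in Pole4+/+ Trp53+/+ cells and at 21.0, 23.95 and 21.4 CPM in Pole4-/- Trp53+/+ cells. Loss of 1 Trp53 allele in the Pole4-/- background came with 43.2, 57.0 and 37.0 CPM, and loss of both with 83.2, 79.5 and 97.7 CPM. So every Pole4-/- library sat in the order of its remaining Trp53 alleles. Pole4+/+ cells held 59.8, 55.4 and 48.2 CPM with 1 Trp53 allele and 42.5, 90.2 and 102 CPM with none.

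Mcm4, Mcm6 and Mcm7 form the core that has helicase activity by itself. Mcm4 (ENSMUSG00000022673, GRCm38 chr16:15623897-15637400, minus strand) was at 76.1, 82.0 and 63.8 CPM in Pole4+/+ Trp53+/+ cells, 40.5, 39.4 and 47.8 CPM in Pole4-/- Trp53+/+ cells, 69.8, 80.9 and 60.9 CPM in Pole4-/- Trp53+/- cells and 113, 112 and 132 CPM in Pole4-/- Trp53-/- cells. Mcm6 (ENSMUSG00000026355, GRCm38 chr1:128331590-128359664, minus strand) was at 107, 112 and 78.8 CPM in Pole4+/+ Trp53+/+ cells, then 48.0, 53.5 and 55.8 CPM, 89.9, 118 and 78.2 CPM, and 156, 155 and 170 CPM in the Pole4-/- genotypes with 2, 1 and 0 Trp53 alleles. For both genes the Pole4-/- groups were separate, and the Trp53+/- group overlapped with Pole4+/+ Trp53+/+ cells. Mcm7 (ENSMUSG00000029730, GRCm38 chr5:138164583-138172422, minus strand) was at 69.4, 69.1 and 52.8 CPM in Pole4+/+ Trp53+/+ cells, and at 35.6, 35.1 and 36.3 CPM, 59.3, 73.1 and 53.7 CPM, and 98.2, 95.2 and 115 CPM in the same 3 Pole4-/- genotypes. In Pole4+/+ Trp53-/- cells replicate 1 was the low one for all 3 genes, with 75.8 CPM for Mcm4 against 110 and 136, 94.4 CPM for Mcm6 against 168 and 161, and 62.4 CPM for Mcm7 against 104 and 124.

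Mcmbp (ENSMUSG00000048170, GRCm38 chr7:128696441-128740495, minus strand) had the same order with a narrower span. Its levels were 52.1, 51.5 and 43.2 CPM in Pole4+/+ Trp53+/+ cells and 33.0, 33.6 and 34.8 CPM in Pole4-/- Trp53+/+ cells. In the Pole4-/- background it was at 44.1, 52.9 and 43.7 CPM with 1 Trp53 allele and at 66.4, 62.7 and 72.0 CPM with none. These groups did not overlap either, so Mcmbp differed from the subunits in size and not in order. Pole4+/+ Trp53-/- cells gave 42.5, 68.1 and 74.5 CPM.

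**Figure D2:**
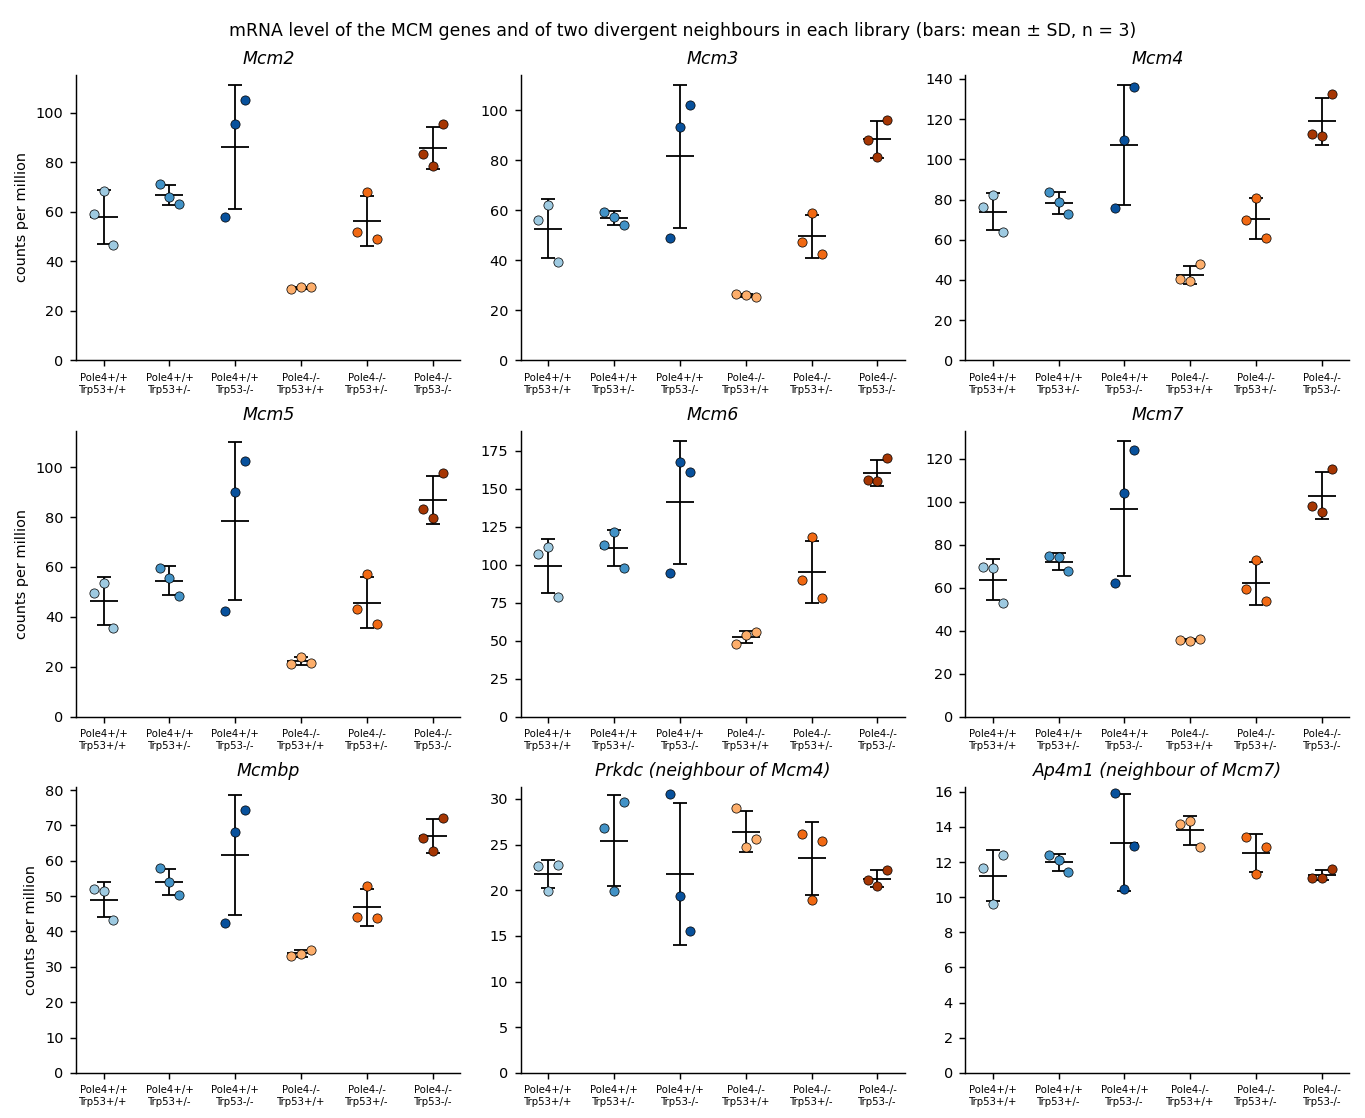
Level of each MCM gene, and of the neighbours Prkdc and Ap4m1, in every library. The y axis is CPM from 0, the x axis the 6 genotypes, points are libraries and bars the mean ± SD of 3; for the 7 MCM genes the 3 Pole4-/- Trp53+/+ points lie below every other point, and the lowest point of Pole4+/+ Trp53-/- is replicate 1.

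The first comparison asked what loss of TRP53 did to helicase transcripts when POLE4 was missing. All 7 members rose in Pole4-/- Trp53-/- against Pole4-/- Trp53+/+ MEFs, where 21.8% of all genes tested were called higher. Mcm5 rose by 1.97 ± 0.26 on the log2 scale, 3.92-fold, with an adjusted p of 5.87e-05. For Mcm3 the change was 1.77 ± 0.22, for Mcm6 1.61 ± 0.20, for Mcm2 1.55 ± 0.19, for Mcm7 1.53 ± 0.19 and for Mcm4 1.48 ± 0.17 (adjusted p between 1.80e-05 and 3.46e-05). Mcmbp rose by 0.99 ± 0.16 (1.98-fold, adjusted p = 0.000199). The median change over the 6 subunits was 1.58 and that over all genes tested was -0.02. The groups did not overlap for any member, and the exact permutation test of 3 against 3 gave its smallest possible p, 0.1, for each. All 7 calls were made under each of the 12 other settings and without any 1 of the 6 libraries. Other features moved with these groups: the fibroblast markers summed to 24890 to 30960 CPM in Pole4-/- Trp53+/+ and 13720 to 16520 CPM in Pole4-/- Trp53-/- libraries, and the muscle markers to 139.9 to 149.5 and 53.3 to 67.9 CPM. The neural markers (17.0 to 17.6 and 14.3 to 15.3 CPM, Rbfox3 at 0 in both groups) and the epithelial markers (2.06 to 2.67 and 4.19 to 20.02 CPM) did not overlap either, so that 4 of the 7 marker lists moved. Their part in the result was not tested.

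With POLE4 present the same comparison gave smaller values. None of the 7 members was called in Pole4+/+ Trp53-/- against Pole4+/+ Trp53+/+ MEFs by edgeR, against 2.23% of all genes called higher. The log2 fold changes were 0.76 ± 0.25 for Mcm5, 0.63 ± 0.21 for Mcm3, 0.60 ± 0.19 for Mcm7, 0.57 ± 0.19 for Mcm2, 0.53 ± 0.17 for Mcm4, 0.51 ± 0.19 for Mcm6 and 0.33 ± 0.15 for Mcmbp, with adjusted p from 0.0829 to 0.261. At an unadjusted p under 0.05 all 7 would pass. DESeq2 called 4 of them (Mcm2, Mcm4, Mcm5 and Mcm7), limma with quality weights 7, and edgeR without replicate 1 of Pole4+/+ Trp53-/- also 7, where 8.58% of all genes were called higher. Without it the log2 fold changes were 1.03 ± 0.17 for Mcm5, 0.86 ± 0.15 for Mcm3, 0.81 ± 0.13 for Mcm7, 0.76 ± 0.14 for Mcm2, 0.70 ± 0.13 for Mcm4, 0.70 ± 0.15 for Mcm6 and 0.51 ± 0.10 for Mcmbp (adjusted p from 0.00125 to 0.00695). In replicates 2 and 3 of that genotype every subunit lay above all 3 Pole4+/+ Trp53+/+ libraries, and in replicate 1 none did. The calls in this comparison thus depended on the tool as well as on that library. Of the 7 marker lists, muscle alone did not overlap between these groups, at 113.9 to 151.7 CPM in Pole4+/+ Trp53+/+ and 42.7 to 50.7 CPM in Pole4+/+ Trp53-/- libraries. The Pole4+/+ Trp53+/- libraries lay between them at 58.6 to 80.5 CPM, apart from both. Its part in the values was not tested.

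An interaction term tested whether Trp53 loss acted differently with and without POLE4. The Trp53-/- effect was larger in Pole4-/- cells by 1.22 ± 0.36 on the log2 scale for Mcm5, 1.14 ± 0.31 for Mcm3, 1.11 ± 0.28 for Mcm6, 0.98 ± 0.27 for Mcm2, 0.95 ± 0.24 for Mcm4, 0.93 ± 0.27 for Mcm7 and 0.66 ± 0.22 for Mcmbp. By edgeR none was called: adjusted p ran from 0.0535 to 0.0852, and 0.178% of all genes were called in this direction. All 7 had an unadjusted p under 0.05. DESeq2 called all 7 (adjusted p from 0.00569 to 0.0429), as did limma with quality weights (0.0141 to 0.0317). Without replicate 1 of Pole4+/+ Trp53-/- none was called, with 0.871% of all genes called higher, values of 0.46 for Mcmbp to 0.93 for Mcm5 and adjusted p from 0.0511 to 0.0931. Without replicate 2 or replicate 3 of that genotype all 7 were, and without replicate 3 of Pole4+/+ Trp53+/+ 4 were. The members thus lay at the threshold of this test, and which side they fell on depended on the tool, the scaling, the filter on low counts, the replicate block and these libraries.

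**Figure D3:**
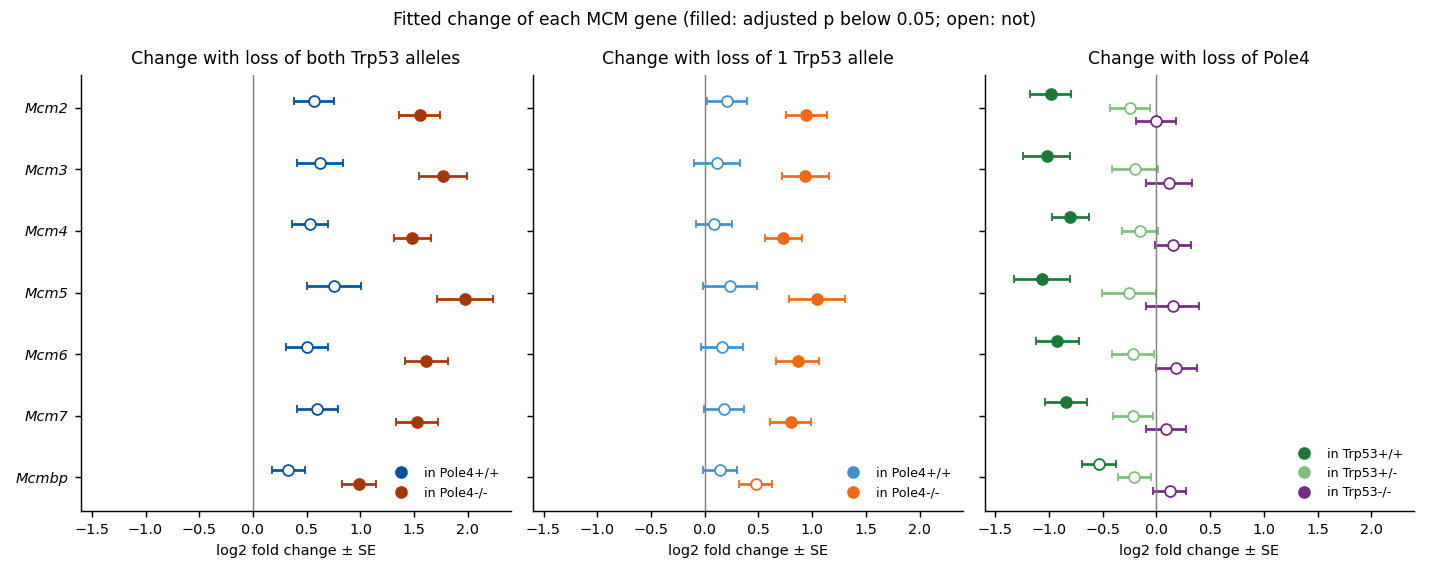
Fitted change of each MCM gene by comparison. The x axis is the log2 fold change with its standard error, rows are genes, colors the background in which the change was measured, and filled points have an adjusted p below 0.05; in Pole4-/- cells all 7 points for Trp53-/- are filled and lie between 0.99 and 1.97, and the changes with loss of Pole4 lie near 0 in Trp53-/- cells.

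Loss of a single Trp53 allele was compared next. In Pole4-/- cells the 6 subunits rose with 1 allele lost, by 1.05 ± 0.26 for Mcm5, 0.94 ± 0.19 for Mcm2, 0.94 ± 0.22 for Mcm3, 0.86 ± 0.20 for Mcm6, 0.80 ± 0.19 for Mcm7 and 0.73 ± 0.17 for Mcm4 (adjusted p between 0.0202 and 0.0366). Mcmbp had a value of 0.47 ± 0.16 and an adjusted p of 0.0825, and was called under 6 of the 12 other settings, DESeq2 and limma among them. In this comparison 2.96% of all genes were called higher. Only 1 call was left with sex as a covariate, that of Mcm2, and none when any 1 Pole4-/- Trp53+/+ library or replicate 2 of Pole4-/- Trp53+/- was left out, although the fold changes stayed positive. The step from 1 allele to none in Pole4-/- cells added 0.93 ± 0.25 for Mcm5, 0.83 ± 0.22 for Mcm3, 0.75 ± 0.17 for Mcm4, 0.75 ± 0.19 for Mcm6, 0.73 ± 0.19 for Mcm7, 0.61 ± 0.19 for Mcm2 and 0.52 ± 0.15 for Mcmbp. All 7 were called here (adjusted p from 0.00986 to 0.0436), where 6.58% of all genes were called higher. The 2 steps share the Pole4-/- Trp53+/- libraries, so that a high or low value in those moves them in opposite directions. Scaling by library totals alone lowered the median of all genes in the second step by 0.33 and left no member called, and relative to that median the members' median was 0.77, against 0.75 with the main scaling. The calls of the second step were also lost without replicate 3 of either genotype, and 1 was left without replicate 1 of Pole4-/- Trp53+/-. Marker lists moved with these steps too. In the first, the neural sum went from 17.0 to 17.6 CPM to 8.26 to 12.7 CPM and the epithelial sum from 2.06 to 2.67 CPM to 3.90 to 6.44 CPM. In the second, the muscle sum went from 125 to 203 CPM to 53.3 to 67.9 CPM, the fibroblast sum from 20560 to 26020 CPM to 13720 to 16520 CPM and the neural sum to 14.3 to 15.3 CPM, with no overlap in any of these. Ribosomal RNA genes also took separate shares in the second step, 3.75 to 15.5% with 1 Trp53 allele and 24.7 to 30.04% with none, and with these genes left out all 7 members were called, with TMM and with library totals alone. Their part in the results was not tested.

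In Pole4+/+ cells no difference with loss of the first allele was detectable. Log2 fold changes in Pole4+/+ Trp53+/- against Pole4+/+ Trp53+/+ lay between 0.08 and 0.24, none of the 7 members was called by edgeR, DESeq2 or limma, none had an unadjusted p under 0.05, and the background was 0.496% of genes called higher. From 1 allele to none, values lay between 0.19 and 0.52, with 0.07% of all genes called higher; edgeR and DESeq2 called no member, 3 had an unadjusted p under 0.05 by edgeR, and limma with quality weights called 6. Without replicate 1 of Pole4+/+ Trp53-/- edgeR called all 7, beside 5.03% of all genes called higher, with values from 0.37 ± 0.10 for Mcmbp to 0.80 ± 0.17 for Mcm5 and adjusted p from 0.0102 to 0.0392. The difference between the backgrounds in the effect of the first allele was 0.82 ± 0.31 for Mcm3 and 0.33 to 0.81 for the others, with adjusted p between 0.491 and 0.549. No member passed by edgeR or DESeq2, 6 had an unadjusted p under 0.05, limma with quality weights called 5, and edgeR called 0% of all genes higher. All 3 Pole4+/+ Trp53+/- libraries came from male and all 3 Pole4+/+ Trp53+/+ libraries from female embryos, judged by Xist and Y-linked RNA, so sex and genotype cannot be told apart within this pair of groups. The 3 Pole4+/+ Trp53-/- libraries were read as female too, replicate 1 with some Y-linked RNA. In the step from 1 allele to none, sex and genotype therefore cannot be told apart either.

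The last set of comparisons asked what loss of POLE4 did at each Trp53 dose. In Trp53+/+ cells the 6 subunits fell with loss of Pole4. Mcm5 fell by 1.07 ± 0.26 on the log2 scale (0.478-fold, adjusted p = 0.0370), and for Mcm3 the change was -1.02 ± 0.22, for Mcm2 -0.98 ± 0.19, for Mcm6 -0.92 ± 0.20, for Mcm7 -0.84 ± 0.19 and for Mcm4 -0.80 ± 0.17 (adjusted p between 0.0203 and 0.0303). Mcmbp had -0.54 ± 0.16 and an adjusted p of 0.0627, and was called under 6 of the 12 other settings. In all, 2.7% of genes were called lower. Every Pole4-/- library lay below every Pole4+/+ library for each of the 7 members. Of the 7 marker lists, 3 also differed without overlap between the Pole4+/+ and Pole4-/- libraries: fibroblast genes at 16330 to 22000 and 24890 to 30960 CPM, neural genes at 10.01 to 11.8 and 17.0 to 17.6 CPM and epithelial genes at 2.84 to 6.76 and 2.06 to 2.67 CPM. Their part in the result was not tested. With sex as a covariate none passed, with adjusted p between 0.126 and 0.235 and fold changes of -1.02 to -0.49, and none passed at a threshold of 0.01 or without any 1 Pole4-/- Trp53+/+ library or replicate 1 or 2 of Pole4+/+ Trp53+/+. The Pole4+/+ Trp53+/+ libraries were all female and 2 of the 3 Pole4-/- Trp53+/+ libraries male. The single female Pole4-/- Trp53+/+ library, replicate 1, had subunit levels like those of the males, for example 28.7 CPM of Mcm2 and 21.0 CPM of Mcm5. This comparison and that of Pole4-/- Trp53-/- use the same Pole4-/- Trp53+/+ libraries.

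With 1 or no Trp53 allele no difference of the MCM transcripts with Pole4 was detectable. In Trp53+/- cells the log2 fold changes were -0.26 to -0.15, and in Trp53-/- cells 0.19 ± 0.19 for Mcm6, 0.15 ± 0.25 for Mcm5, 0.15 ± 0.17 for Mcm4, 0.12 ± 0.21 for Mcm3, 0.12 ± 0.15 for Mcmbp, 0.09 ± 0.19 for Mcm7 and -0.00 ± 0.19 for Mcm2. None of the 7 was called by edgeR, DESeq2 or limma in either comparison, and none had an unadjusted p under 0.05. The backgrounds were 0.00637% and 0% of genes called lower. The sign of the Trp53-/- values was not stable. By library totals alone, which moved the median of all genes by -0.42, all 7 were negative, between -0.40 and -0.21. Relative to that median the members' median was 0.16, against 0.14 with the main scaling. With ribosomal RNA genes left out as well, library totals gave a members' median of 0.08. Without replicate 1 of Pole4+/+ Trp53-/- all 7 were negative with the main scaling.

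The subunits kept close proportions to one another. After each gene was centred on its mean log2 CPM over the 18 libraries, the mean of the 6 subunits ran from -1.05 in replicate 1 of Pole4-/- Trp53+/+ to 0.85 in replicate 3 of Pole4+/+ Trp53-/-, a span of 1.90. No subunit moved away from that mean by more than 0.275 in any library. Pearson correlations between subunits over the 18 libraries were 0.977 to 0.996 in 15 pairs, and 0.890 to 0.982 for the deviations from the genotype means, which leave out the differences between genotypes. These values describe libraries of shared depth and cell state and carry no test. Within this narrow band, Mcm5 was on the low side in Pole4-/- Trp53+/+ cells, -0.17 ± 0.10 (SD, n = 3) against the subunit mean, and on the high side in Pole4-/- Trp53-/- cells, 0.14 ± 0.03. Mcm4 was at 0.14 ± 0.12 and -0.03 ± 0.03 in the same 2 genotypes.

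Mcmbp left the band. Relative to the mean of the 6 subunits it was at 0.42 ± 0.01 (SD, n = 3) in Pole4-/- Trp53+/+ cells, 0.02 ± 0.12 in Pole4-/- Trp53+/- cells and -0.24 ± 0.04 in Pole4-/- Trp53-/- cells, and these ranges did not overlap. In Pole4+/+ cells it was at 0.03 ± 0.13, -0.00 ± 0.03 and -0.23 ± 0.08 with 2, 1 and 0 Trp53 alleles. In replicate 1 of Pole4+/+ Trp53-/-, where the subunits were low, Mcmbp also lay below the subunit mean. Its correlation with the single subunits was 0.975 to 0.990, so it rose and fell with them by a smaller amount.

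**Figure D4:**
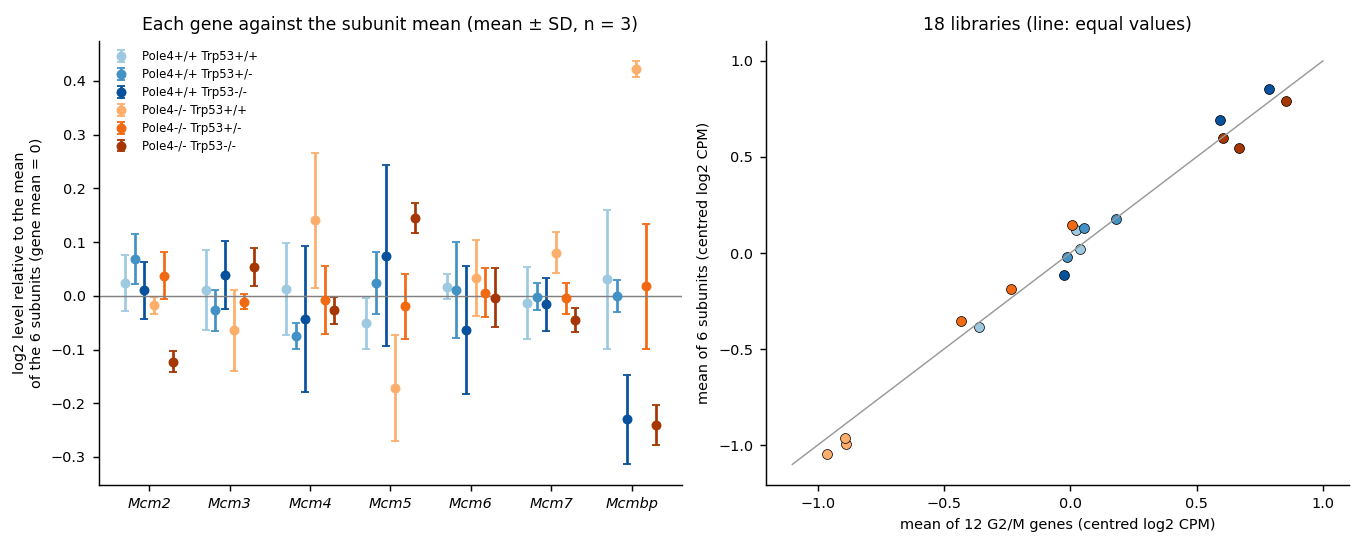
Left, log2 level of each MCM gene relative to the mean of the 6 subunits in the same library, with each gene centred at 0 over the 18 libraries (points: mean of 3 libraries per genotype, bars: SD); Mcmbp runs from 0.42 in Pole4-/- Trp53+/+ to -0.24 in Pole4-/- Trp53-/-. Right, mean of the 6 subunits against the mean of 12 G2/M genes in each of 18 libraries, both as centred log2 CPM, colors as on the left; all points lie within 0.14 of the line of equal values.

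Levels of different genes can be set side by side only per length. In CPM per kb of exon (all annotated exons of the gene), Mcm6 (21.2 ± 3.8, SD, n = 3) and Mcm4 (20.6 ± 2.6) were highest in Pole4+/+ Trp53+/+ cells, followed by Mcm7 (14.4 ± 2.2), Mcm3 (14.0 ± 3.1), Mcm5 (11.6 ± 2.4), Mcmbp (9.58 ± 0.97) and Mcm2 (8.33 ± 1.57). Over the length of the longest coding transcript the order changed: Mcm6 stood at 22.8, Mcm7 at 21.5, Mcm4 at 20.6, Mcm3 at 17.4, Mcm2 at 17.2, Mcm5 at 13.7 and Mcmbp at 11.6 CPM per kb. Mcm2 and Mcm7 have annotated exons well outside that transcript, and by its length the highest and lowest subunits differed by less than by exon length.

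Mcm4 and Mcm7 start next to another gene on the opposite strand, and neither neighbour was called where the members rose. Mcm4 and Prkdc (the catalytic subunit of the DNA-dependent protein kinase of end joining) start 466 bp apart. Prkdc was at 29.0, 24.7 and 25.6 CPM in Pole4-/- Trp53+/+ cells and at 21.1, 20.4 and 22.2 CPM in Pole4-/- Trp53-/- cells. Its log2 fold change was -0.32 ± 0.20 (adjusted p = 0.224), beside 1.48 ± 0.17 for Mcm4. Ap4m1, which encodes a subunit of a vesicle adaptor complex, reads the other way, and where it starts relative to Mcm7 depends on the annotation. From the outermost Mcm7 start of GENCODE it lies 420 bp downstream, inside the Mcm7 gene, and from the upstream RefSeq start whose window is printed above the RefSeq start of Ap4m1 lies 138 bp upstream. It was at 14.2, 14.4 and 12.8 CPM and at 11.1, 11.1 and 11.6 CPM in the same libraries, -0.30 ± 0.14 (adjusted p = 0.0977), beside 1.53 ± 0.19 for Mcm7. Its RefSeq window shares 237 bases with the upstream Mcm7 window printed above and thereby holds the same pair of E2F words. Mcm7 was called in this comparison and Ap4m1 was not. Neither neighbour was called in any of the 11 comparisons. The exons of Mcm7 and Ap4m1 overlap by 321 bp, 7.25% of the Mcm7 exons, and the library kit does not mark strand, so reads there could be given to either gene. The microRNA genes Mir25, Mir93 and Mir106b lie within Mcm7, and each was at 0 counts in all 18 libraries, in data from a library type that does not capture short RNAs. Near Mcm3 lies the pseudogene Gm20587, which also had 0 counts.

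The lists of other replication genes show what the helicase moved with. In Pole4-/- Trp53-/- against Pole4-/- Trp53+/+ cells, where 21.8% of all genes tested were called higher and 20.8% lower, 9 of 10 origin recognition and licensing genes rose, with a median log2 fold change of 1.30 over the list. Cdc6, the loader of the MCM ring, was the highest at 2.03 ± 0.27 (adjusted p = 5.97e-05), and Orc3 the lowest at -0.18 ± 0.09 (adjusted p = 0.134). All 15 genes of CMG assembly and activation rose (median 1.49), from Gins4, a subunit of GINS, at 0.65 ± 0.10 to Mcm10, which activates the assembled helicase, at 1.97 ± 0.24. All 4 fork protection genes rose as well: Clspn, the adaptor of the checkpoint kinase CHK1, by 1.78 ± 0.26, Timeless by 1.52 ± 0.13, Wdhd1, which ties polymerase alpha to the fork, by 1.47 ± 0.18 and Tipin, the partner of Timeless, by 1.28 ± 0.21.

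Genes that take the helicase off DNA moved less as a list. Of 11 genes of CMG unloading, 6 rose and 5 were not called (median 0.25), beside the 21.8% of all genes called higher. Traip, the ubiquitin ligase that unloads CMG in mitosis, rose by 1.69 ± 0.21, whereas Elob, a subunit of the ligase that acts at replication termination and of other ligases, had -0.13 ± 0.09 (adjusted p = 0.241). Among the other MCM-named genes, Mcm10 and Mcm8 (1.27 ± 0.20, adjusted p = 0.000202) rose. MCM8 and MCM9 form a separate helicase that serves homologous recombination, but Mcm9 had a value of only 0.25 ± 0.16 (adjusted p = 0.217), and Mcm3ap, a nuclear export factor named for binding MCM3, 0.19 ± 0.08 (adjusted p = 0.0805). Mcmdc2, a meiotic gene, had too few counts to be tested.

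**Figure D5:**
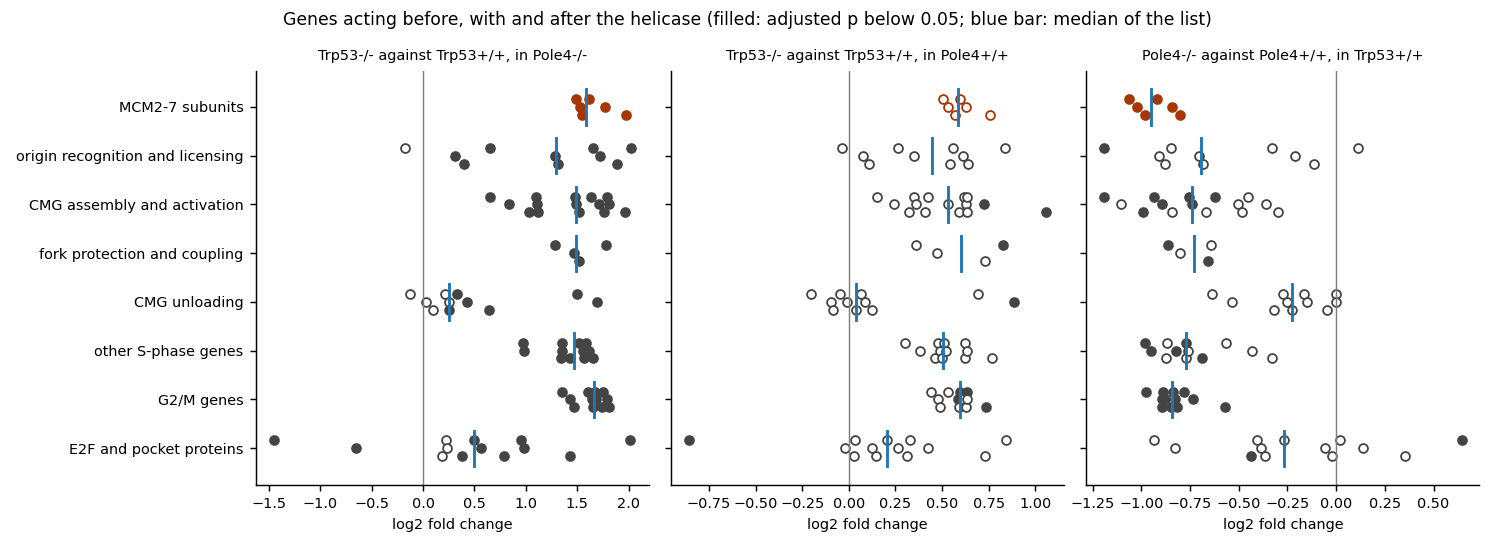
Log2 fold change of each gene (points) in lists of genes that act before, with and after the helicase, in 3 comparisons; rows are lists, filled points have an adjusted p below 0.05 and blue bars are list medians. In Pole4-/- cells the MCM2-7 row has its median at 1.58 and CMG unloading at 0.25, and in the third panel every list has its median below 0.

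Cell cycle lists moved by amounts like those of the helicase. All 12 other S-phase genes rose (median 1.47), from Slbp, which binds histone mRNA, at 0.98 ± 0.13 to Rrm1, a subunit of ribonucleotide reductase, at 1.66 ± 0.25. All 12 G2/M genes rose too (median 1.66), with Ccnb2 lowest at 1.35 ± 0.13 and Bub1 highest at 1.80 ± 0.19. The subunit mean stayed within 0.14 of the G2/M mean in every library, and within 0.27 of the S-phase mean. Between genotypes the largest gap to the S-phase mean was in Pole4-/- Trp53+/+ cells, where the subunits stood at -0.21 ± 0.09 (SD, n = 3) relative to it. Of 13 E2F and pocket protein genes, 8 rose, 2 fell and 3 were not called (median 0.50), beside 21.8% of all genes called higher and 20.8% lower, so the 2 that fell are no more than the background share. The repressor E2f7 was the highest at 2.02 ± 0.28 (adjusted p = 8.36e-05). Rb1, the retinoblastoma gene itself, was the lowest and fell by 1.45 ± 0.13 (adjusted p = 2.01e-06).

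The same lists were counted in 2 other comparisons. In Pole4+/+ cells, loss of both Trp53 alleles came with 2.23% of all genes called higher and 2.37% lower. A rise was called there for 0 of 10 licensing genes, though 6 had an unadjusted p under 0.05, for 2 of 15 CMG assembly genes, for 1 of 4 fork protection genes (Timeless, 0.83 ± 0.13), for 1 of 11 unloading genes (Traip, 0.88 ± 0.20), for 0 of 12 S-phase genes, where 9 had an unadjusted p under 0.05, and for 4 of 12 G2/M genes. Rb1 fell by 0.86 ± 0.13 there (adjusted p = 0.000971), while the other 12 genes of the E2F and pocket protein list were not called. Without replicate 1 of Pole4+/+ Trp53-/-, where 8.58% of all genes were called higher and 8.34% lower, a rise was called for 7 of 10 licensing genes, 13 of 15 CMG assembly genes, all 4 fork protection genes, 2 of 11 unloading genes, 6 of 13 E2F and pocket protein genes, all 12 S-phase genes and all 12 G2/M genes, and a fall for Rb1 and for Cul2, a scaffold of the unloading ligase. With loss of Pole4 in Trp53+/+ cells, where 2.7% of all genes were called lower and 1.29% higher, 1 of 10 licensing genes fell (Cdc6, by 1.19 ± 0.27), as did 7 of 15 CMG assembly genes, 2 of 4 fork protection genes, 0 of 11 unloading genes, 5 of 12 S-phase genes and all 12 G2/M genes. At an unadjusted p under 0.05 these counts were 7, 14, 4, 4, 12 and 12, beside 4101 of all 15710 genes in either direction. The list medians were -0.69, -0.74, -0.73, -0.23, -0.77 and -0.84 in the same order. Of the 13 E2F and pocket protein genes, 1 rose and 1 fell in that comparison: Rb1 rose by 0.64 ± 0.12 (adjusted p = 0.0203), and its relative Rbl1 fell by 0.44 ± 0.12 (adjusted p = 0.0486). Cdkn1a, the TRP53 target that encodes P21, had 342, 361 and 363 CPM in Pole4-/- Trp53+/+ cells against 243, 232 and 251 CPM in the Pole4+/+ Trp53+/+ libraries (log2 fold change 0.56 ± 0.21, adjusted p = 0.115), and 5.17 to 12.03 CPM in the 6 Trp53-/- libraries.

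Among all tested genes outside the 7 members, those whose profile over the 18 libraries was most like the mean of the 6 subunits were Lmnb1, Plk1, Uhrf1, Ube2c, Nup85, Ssrp1, Kif2c and Cdc6, with Pearson correlations from 0.994 for Lmnb1 down to 0.990 for Cdc6. Lmnb1 encodes a lamin of the nuclear envelope, Plk1, Ube2c and Kif2c act in mitosis, Uhrf1 maintains DNA methylation behind the fork, Ssrp1 encodes a subunit of the histone chaperone FACT, and Nup85 a nuclear pore protein. The likeness of Mcmbp was 0.987, that of E2f8 0.967 and that of E2f1 0.711. Prkdc, Ap4m1 and Cdkn1a had negative values of -0.634, -0.563 and -0.776. These are descriptions over libraries that share genotypes, and the values of neighbours in the ranking are too close to order.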

How the data were processed

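Per the labels and the study's methods, RNA was converted to cDNA and libraries with Ovation kits, which do not mark strand, and sequenced as 100 bp paired ends. Trim Galore, STAR 2.5.2 (genome GRCm38, Ensembl genes) and RSEM 1.3.0 were the authors' trimming, alignment and counting tools. The deposited values are RSEM expected counts per gene, in which a read that matches several genes is divided among them (6.14% of values are not whole), and 0 columns of the table were left unused. They were rounded, filtered with filterByExpr and fitted with edgeR 4.0.16 in R 4.3.3 (TMM scaling, robust quasi-likelihood F-tests, 12 residual degrees of freedom, 11 comparisons). The standard error is the log2 fold change divided by the square root of F. Identifiers were matched to GENCODE's annotation of GRCm38, of which 51633 matched. Single genes were also tested with exact two-sided permutation tests. Log2 levels used a prior count of 2.

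Genotypes and replicate numbers came from the labels. MEFs were prepared from individual embryos according to the study's methods, but no source used here states that the 3 libraries of a genotype came from separate embryos. Each Pole4-/- genotype had libraries read as male and as female, so more than 1 embryo contributed there. Beyond that the origin is open, and p-values measure the spread between these libraries, which may be technical in part. Sex was read from Xist and Y-linked genes. The members, the gene lists and the motifs were chosen with earlier results of these data known. Named genes are the 7 members, Trp53, Pole4, Cdkn1a, the divergent neighbours within 2000 bp, the highest and lowest gene of each list (all genes of lists of up to 5), and the 8 genes of greatest likeness. Other genes, such as E2f1, E2f8, Rbl1 and Cul2, were named after their values were seen. Alternatives were DESeq2 1.42.0, limma 3.58.1 (voom with quality weights), other scalings and filters, a fit of only the groups compared, sex or replicate number as a covariate, a threshold of 0.01 and leaving out each library.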

Additional observations from a re-analysis of the deposited data

How the results depend on the processing

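The rise of the 7 members in Pole4-/- Trp53-/- against Pole4-/- Trp53+/+ cells kept all 7 calls under the 12 other settings and the 6 fits that left out a library, with log2 fold changes from 0.89 to 2.04. For the changes that follow, the cause was not tested. In Pole4+/+ cells, loss of both Trp53 alleles was called for 3 members with ribosomal RNA genes left out and library totals alone (a setting added after seeing the data), 4 with DESeq2 and 7 with limma voom. Leaving out a library gave 0 to 7, and the 7 came without Pole4+/+ Trp53-/- replicate 1. From 1 Trp53 allele to none in Pole4+/+ cells, limma voom called 6, and leaving out a library gave 0 to 7, the 7 again without that replicate. Loss of 1 allele in Pole4-/- cells gave 0 calls at an adjusted p under 0.01, 1 with sex as a covariate and 7, Mcmbp included, under 6 settings (library totals alone, with and without ribosomal RNA genes, no filter, only the groups compared, DESeq2, limma voom). It gave 0 to 6 without a library, the 0 without any 1 of the 3 Pole4-/- Trp53+/+ replicates or Pole4-/- Trp53+/- replicate 2, and 5 without Pole4-/- Trp53+/- replicate 1. The step to no allele in Pole4-/- cells gave 1 call at 0.01, 0 with library totals alone, 5 with no filter on low counts and 6 with sex as a covariate. It gave 0 to 7 without a library: 0 without Pole4-/- Trp53+/- replicate 3 or Pole4-/- Trp53-/- replicate 3, 1 without Pole4-/- Trp53+/- replicate 1, 4 without Pole4-/- Trp53-/- replicate 1 and 5 without Pole4-/- Trp53-/- replicate 2. Pole4 loss in Trp53+/+ cells gave 0 calls at 0.01, 0 with sex as a covariate and 7 under the same 6 settings. It gave 0 to 7 without a library, with 7 only without Pole4+/+ Trp53+/+ replicate 3 and 0 without any other. The interaction for Trp53-/- had 1 call with upper-quartile scaling, 2 with ribosomal RNA genes left out, 5 with these left out and library totals alone, 2 with no filter on low counts, 3 with a mean of at least 50 counts, 7 with DESeq2 and 7 with limma voom. It had 0 to 7 without a library, with 7 without Pole4+/+ Trp53-/- replicate 2 or 3 and 4 without Pole4+/+ Trp53+/+ replicate 3. For Trp53+/- the interaction had 5 calls with limma voom.

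With a replicate block the Trp53-/- interaction had 2 calls, and no other count of members changed. No label ties the numbers to a litter or day. Deviations from the genotype means correlated at -0.26 to 0.59 (median 0.098) in same-numbered and -0.493 to 0.40 (median -0.060) in different-numbered pairs, and 11 of 18 libraries correlated best with one of their own number, a hint of some sharing. The main fit did not treat the numbers as pairs, and the replicate block above gives what changed with them.

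Signs turned under these settings for results of -0.0041 to 0.186 on the log2 scale, none of them called. For Pole4 loss in Trp53-/- cells, library totals alone gave -0.27 for Mcm3, -0.25 for Mcm4, -0.24 for Mcm5, -0.21 for Mcm6, -0.31 for Mcm7 and -0.28 for Mcmbp. That setting moved the median of all genes by -0.42. Relative to the median of all genes, the members' median stayed positive, at 0.16 against 0.14 in the main fit. Limma voom gave -0.0895 for Mcm3, -0.0868 for Mcm5, -0.0275 for Mcm6, -0.0825 for Mcm7 and -0.0395 for Mcmbp. Mcm2 turned to 0.0117 with the replicate block and 0.0295 with sex as a covariate. Leaving out a library gave -0.22 to 0.157 for Mcm2, -0.139 to 0.307 for Mcm3, -0.0395 to 0.349 for Mcm4, -0.144 to 0.384 for Mcm5, -0.0296 to 0.335 for Mcm6, -0.1415 to 0.301 for Mcm7 and -0.0816 to 0.271 for Mcmbp, the lowest each time without Pole4+/+ Trp53-/- replicate 1. For loss of 1 Trp53 allele in Pole4+/+ cells, it gave -0.0558 to 0.246 for Mcm3 and -0.0125 to 0.161 for Mcm4, the lowest without Pole4+/+ Trp53+/+ replicate 3. With 3 libraries a group, leaving 1 out leaves 2.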
